A study of Mus musculus with 8 samples.

Results

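The mitochondrial ribosomal protein genes were taken as every gene in the files whose symbol starts with Mrpl or Mrps followed by a digit. The rule uses the symbol and no measured value. It found 76 genes among the 22059 listed, 47 with a large-subunit symbol (Mrpl) and 29 with a small-subunit symbol (Mrps), and all 76 had enough reads to be tested. Their reads made up 0.222 to 0.329% of the reads counted on genes in each sample.

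Mitochondria make a small set of respiratory-chain proteins on ribosomes of their own. The ribosomal RNAs of these particles are transcribed from mitochondrial DNA, whereas their proteins are encoded in the nucleus, translated in the cytosol and imported. Many of the proteins descend from those of the bacterial ribosome and others are found only in mitochondria. In liver, a tissue rich in mitochondria, hepatocytes rely on the respiratory chain for urea synthesis, gluconeogenesis and fatty acid oxidation after birth, and fetal liver is in addition a site of blood formation.

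Whole livers of wild-type FVB mice (FVB/NJ in the study's methods), an inbred strain, gave the 8 libraries of poly(A)-selected RNA. The stages were embryonic day 18 (E18), postnatal day 14 (P14), postnatal day 28 (P28) and adult at 3 months, with 2 replicates of each, which the study describes as biological duplicates. No animal used here carried a mutation or a treatment. The study followed the liver transcriptome through postnatal maturation, and the stages are compared here for the messenger RNAs of this complex.

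Between 68154675 and 106055723 reads per library were counted on genes, and the members held 47 to 13364 reads each, and over the members duplicates differed by more than sampling noise, with a chi-square per degree of freedom of 4.02 to 7.17. Markers of hepatocytes, 9 genes including albumin and transthyretin, took 6.82 and 6.99% of the reads at E18 and 8.47 to 18.8% later. All 9 erythroid markers were lower in adult than at E18, and their summed share was 1.46 and 1.81% at E18 and 0.00655 to 0.00741% at the later stages. The 8 other haematopoietic markers summed to 0.0986 and 0.102% at E18 and 0.00152 and 0.00156% in adult. The 8 markers of other liver cells summed to 0.0478 and 0.0410% at E18 and 0.0455 and 0.0487% at P14. Their share was 0.0344 and 0.0324% at P28 and 0.0182 and 0.0187% in adult. From E18 to adult, 6 of these 8 were called lower and 2 higher on the TMM scale. The part of this shift in cell types in the results below was not tested, and in whole liver fewer cells of a type and less RNA per cell cannot be told apart.

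The scale on which stages are compared matters for this family. TMM, the scaling of edgeR, which takes most genes as not changed, gave the E18 libraries factors of 1.539 and 1.598 and the later ones 0.847 to 0.888. On that scale the median log2 fold change of all 17081 genes tested, from E18 to adult, was -0.11. Scaling by library size alone moved this median by -0.85, to -0.95. Levels below are reads per kilobase and per 1000000 TMM-scaled reads, with the length of each gene recovered from its read count and its RPKM, and the outcome with library size alone stands beside each direction that it turns.

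Levels differed widely within the family. The lowest mean level at all 4 stages was that of Mrps33, a small-subunit protein found only in mitochondria, with 0.562 (E18), 0.983 (P14), 0.811 (P28) and 0.905 (adult). The highest was that of Mrpl52, a mitochondria-specific protein of the large subunit, at E18 with 99.5. From P14 on it was that of Mrpl14, a large-subunit protein kept from bacteria, with 194 at P14, 140 at P28 and 152 in adult. The median member stood at 20.1 (E18), 28.3 (P14), 26.9 (P28) and 26.7 (adult). Averaged over all samples, Mrpl14 (139), Mrpl52 (106) and Mrpl12 (91.5), the stalk protein of the large subunit, were highest, and Mrps33 (0.815), Mrpl42 (1.43) and Mrps36 (1.57) were lowest.

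Some of the low levels belong to genes with processed copies elsewhere in the genome. In the GENCODE M21 transcripts, 13 members had over 10% of their 31-base words in annotated pseudogenes, and the median of their mean levels was 5.05 against 29.6 for the other members. Of the 10 members with the lowest levels, 5 were among these 13 (Mrps33, Mrps36, Mrps21, Mrpl23 and Mrpl21). The study tabulates uniquely mapped reads, but whether the deposited counts hold only these is not given in the sources used here, so the levels of these genes are uncertain. Of all 76 members, 38 shared no 100-base word with another gene's transcripts and 11 shared over 10%. The largest shares were in Mrpl53 (75.6%, with Gm42688), Mrps34 (67.0%, with Mapk8ip3) and Mrps25 (66.4%, with Nr2c2), where reads of overlapping genes could be counted together.

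From E18 to adult, 51 of the 76 members were higher at a false discovery rate below 0.1 (edgeR quasi-likelihood test, Benjamini-Hochberg over all genes tested), against 39.5% of all genes tested, and 5 were lower, against 43.8% of all genes, whereas with library size alone only 6 were higher (22.1% of all genes) and 50 lower (64.9%). The median log2 fold change of the members was 0.35 on the TMM scale and -0.50 with library size alone. It lay 0.45 above the median of all genes on both scales. The family's share of reads fell from 2984 and 3293 reads per 1000000 at E18 to 2460 and 2395 in adult, while its summed TMM-scaled level rose from 1642 and 1891 to 2584 and 2398, 1.41 times the E18 mean, and with 2 samples a stage an exact permutation test of a single sum cannot go below p = 0.33. Changes were small for the organ: no member passed a 3-fold change in either direction on the TMM scale in any of the comparisons, whereas 40.5% of all genes tested did from E18 to adult. With library size alone Mrps36 did from E18 to P14 (-1.81) and Mrpl23 from E18 to adult (-1.73).

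**Figure D1:**
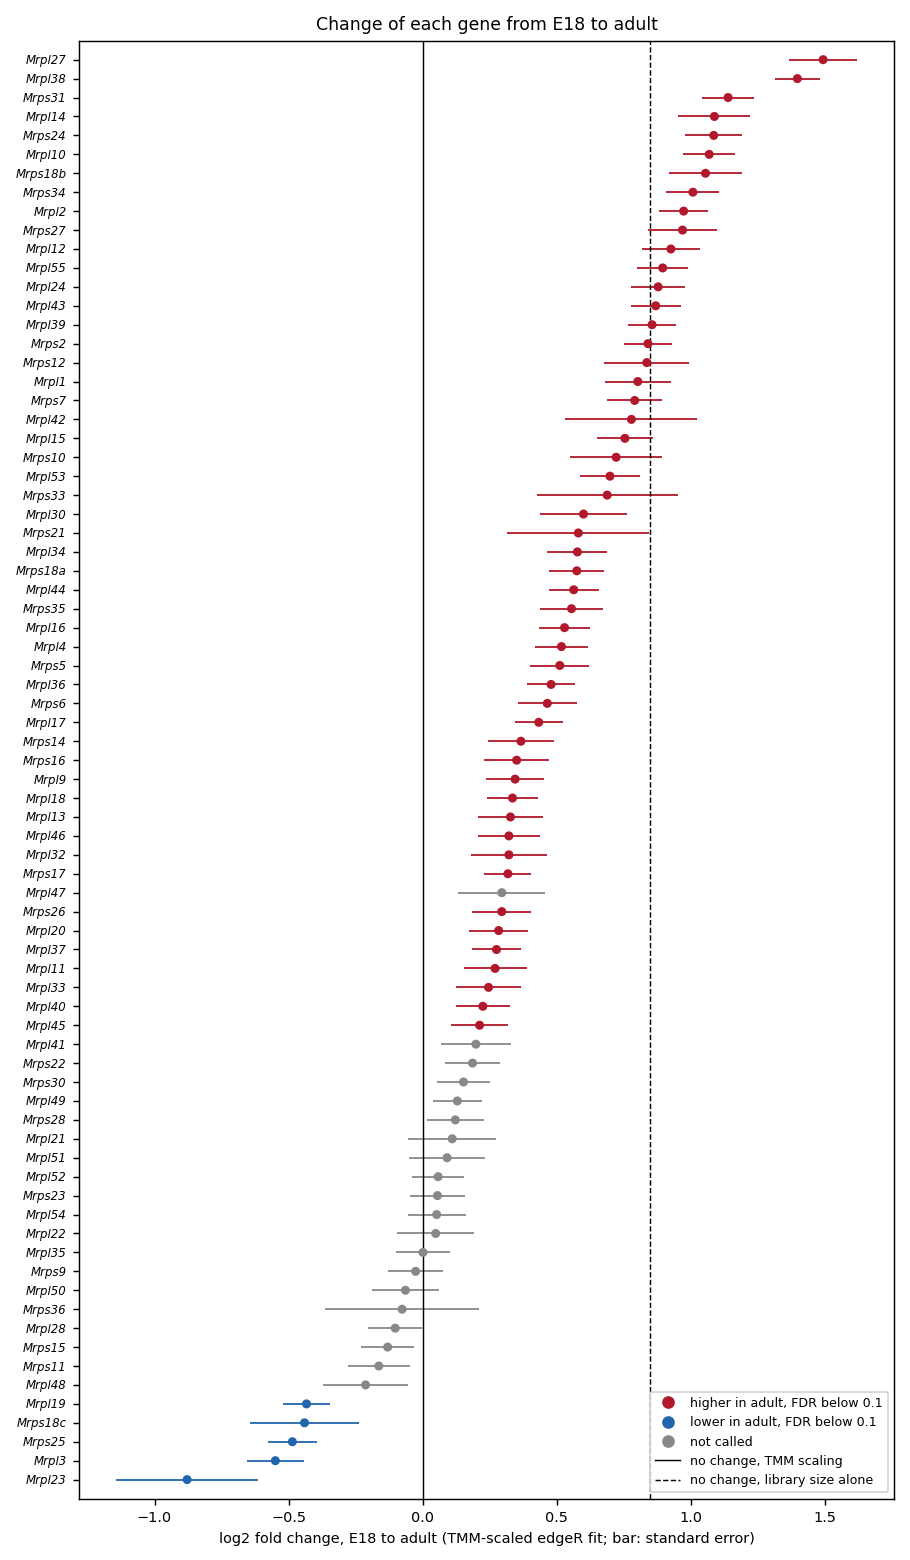
Log2 fold change from E18 to adult of each of the 76 members, in order of size, with its SE (edgeR, TMM scaling). The 51 red members are higher and the 5 blue ones lower at a false discovery rate below 0.1, grey ones were not called, and the dashed line at 0.85 marks no change by library size alone, with 15 members to its right.

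Mrpl27, a large-subunit protein kept from bacteria, had the largest increase from E18 to adult. Its levels were 4.70 and 5.49 (E18), 12.6 and 13.5 (P14), 11.2 and 11.7 (P28) and 14.7 and 14.0 (adult). All samples after birth lay above both E18 samples, and the log2 fold change to adult was 1.49 ± 0.13 (SE; adjusted p = 4.37e-06, edgeR), a 2.81-fold rise. Mrpl27 shared 12.6% of its 100-base words with other transcripts, most with the processed pseudogene Gm6304, and with 30.1% of its 31-base words in pseudogenes, the largest share in the family, its level is uncertain.

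Mrpl38, a mitochondria-specific protein of the large subunit, rose at both of the early intervals. It stood at 23.9 and 25.0 (E18), 53.1 and 48.0 (P14), 61.4 and 62.4 (P28) and 64.7 and 64.1 (adult). No sample of a later stage lay as low as those at E18, and its log2 fold change of 1.40 ± 0.08 had the lowest adjusted p of the family (4.23e-07, edgeR).

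Mrps31, Mrpl14, Mrps24 and Mrpl10 followed, with log2 fold changes of 1.14 ± 0.10, 1.09 ± 0.13, 1.09 ± 0.11 and 1.07 ± 0.10. Mrps31 is a mitochondria-specific protein of the small subunit, and its levels were 14.6 and 16.7 at E18 and 35.3 and 33.4 in adult. Mrps24, the counterpart of bacterial S3, went from 26.1 and 31.4 to 61.8 and 60.2. Mrpl10 holds the stalk of the large subunit, and went from 18.8 and 21.7 to 43.1 and 41.8. These 4 genes, Mrpl27 and Mrpl38 were the members higher in adult with library size alone as well.

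**Figure D2:**
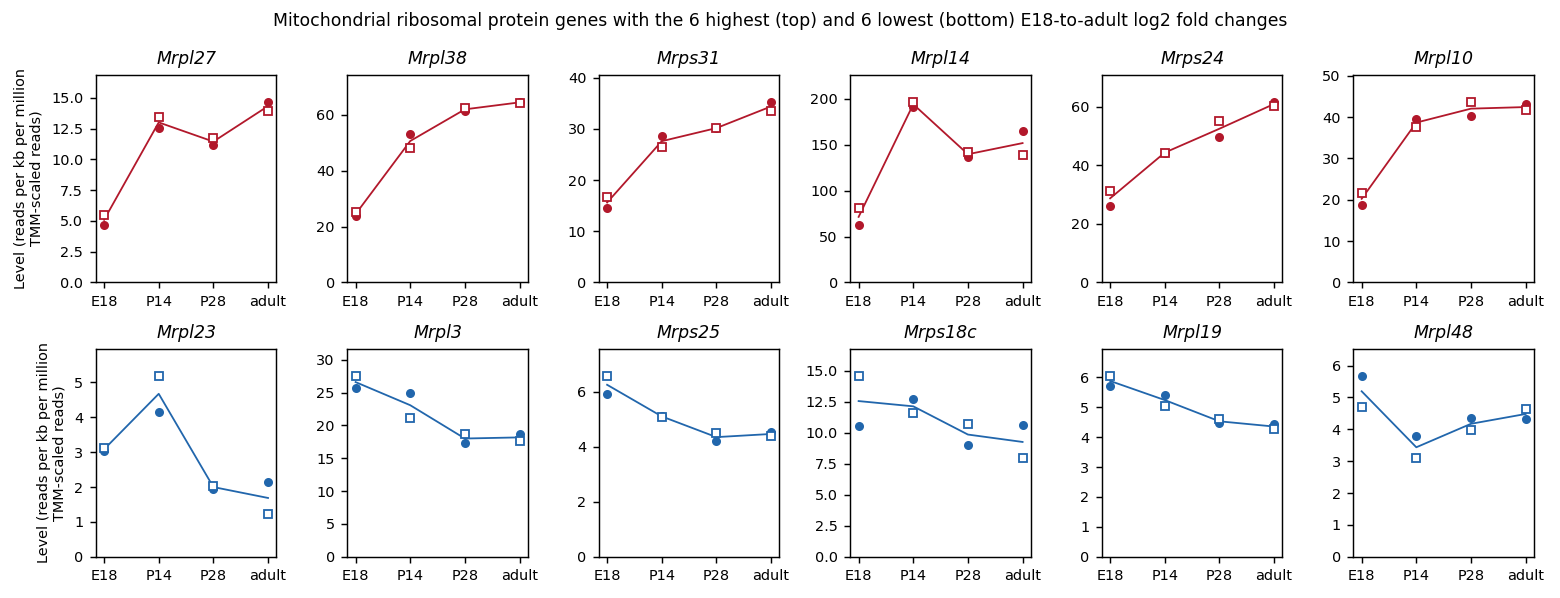
Level of the 6 members with the highest (upper row) and the 6 with the lowest (lower row) log2 fold change from E18 to adult, in every sample, on linear axes that start at 0. Filled circles are replicate 1, open squares replicate 2 and the line joins the stage means (reads per kilobase and per 1000000 TMM-scaled reads). The adult samples of the upper row lie above both E18 samples.

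Mrpl23 had the largest decrease. This protein lies at the exit of the tunnel for the nascent chain. Its levels were 3.05 and 3.12 (E18), 4.16 and 5.18 (P14), 1.96 and 2.04 (P28) and 2.16 and 1.22 (adult), so that on the TMM scale it was highest at P14, with a change from E18 to P14 that turned to -0.27 with library size alone, and the adult replicates stood apart. The log2 fold change from E18 to adult was -0.88 ± 0.26 (adjusted p = 0.0127, edgeR), and it was -0.52 without adult replicate 2 and -1.33 without adult replicate 1. Mrpl23 is among the members with pseudogene copies, with 12.8% of its 31-base words in them.

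Mrpl3, a large-subunit protein that reaches towards the catalytic centre, was the most abundant of the members that fell. It stood at 25.7 and 27.5 (E18), 25.0 and 21.2 (P14), 17.3 and 18.7 (P28) and 18.7 and 17.6 (adult). The E18 and adult samples did not overlap, and the log2 fold change was -0.55 ± 0.11 (adjusted p = 0.00109, edgeR). Mrps25 fell by 0.49 ± 0.09 and Mrpl19 by 0.43 ± 0.09 on the log2 scale, each with both adult samples below both E18 samples. Both share much sequence with a neighbouring gene (Nr2c2 and Gcfc2), and Mrps25 had 16.5% of its 31-base words in pseudogenes.

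Mrps18c was the fifth member called lower, with levels of 10.5 and 14.6 at E18 and 10.6 and 7.92 in adult, which overlap. Its log2 fold change was -0.44 ± 0.20 (adjusted p = 0.0722, edgeR), and the call was lost without E18 replicate 2 (-0.18) and without adult replicate 2 (-0.25). Mrpl48 was next in order and did not pass, with 5.67 and 4.71 at E18 and 4.31 and 4.65 in adult (-0.21 ± 0.16, adjusted p = 0.242, edgeR). All 6 of these genes had negative values with library size alone too. Without E18 replicate 1, 8 members were called lower and 39 higher.

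By single samples on the TMM scale, 54 members had both adult values above both E18 values, against 42.4% of all genes tested, 5 had both below, against 47.5%, and 17 overlapped. By stage mean, 57 members were lowest at E18 on the TMM scale, whereas with library size alone 59 were highest at E18. P14 was the stage of the highest mean for 31 members on the TMM scale, adult for 26, P28 for 12 and E18 for 7, and with library size alone P14 was highest for 5. These counts by stage mean were not made for all genes tested, so they do not set the family apart. With library size alone, 64.9% of all genes tested were called lower in adult than at E18.

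**Figure D3:**
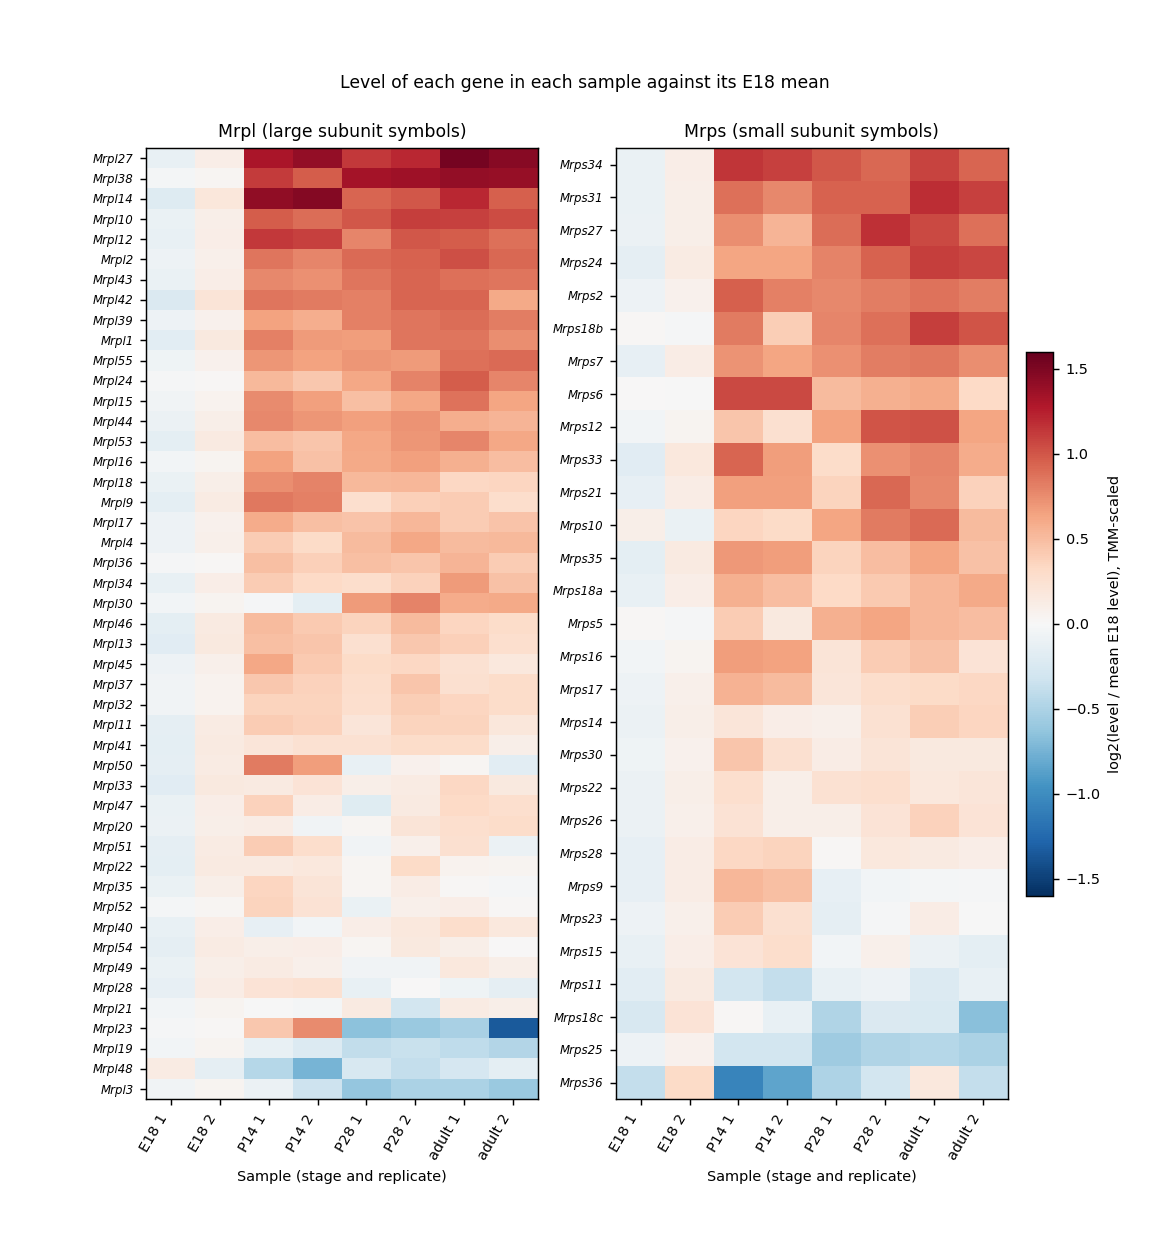
Log2 ratio of the level of each member in each of the 8 samples to its own E18 mean (TMM scaling), for the 47 Mrpl and the 29 Mrps symbols, ordered by the mean ratio over the samples. Red is above the E18 mean and blue below it; most rows are red after birth, a pattern that library size alone turns, and the rows of Mrpl3, Mrpl19, Mrpl48, Mrps11, Mrps25 and Mrps36 are blue at P14.

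To describe how members moved against each other, with no scale taken from the other genes, each sample's summed reads of the family were used as its library size. From E18 to adult, 21 members then gained on the family total, against 28.1% of all genes tested, and 28 lost on it, against 54.9%. The remaining 27 did not pass the test in either direction. Mrpl27 gained 1.02 ± 0.14 on the log2 scale (adjusted p = 0.000122, edgeR) and Mrpl38 gained 0.92 ± 0.09. Mrpl23 lost most, with -1.37 ± 0.28 (adjusted p = 0.00164, edgeR), followed by Mrpl3 with -1.03 ± 0.10, Mrps25 with -0.96 ± 0.09, and Mrpl19 and Mrps18c with -0.91 each. Since the members are set against their own sum, a gain by some goes with a loss by others, and the share that gained, 27.6%, is near that of all genes. The shares of all genes given here depend on this scale.

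Members were next grouped by origin and place, with Mrps18a and Mrps30 counted in the large subunit, where their proteins sit. Of 29 large-subunit members with a bacterial counterpart, 21 were higher and 3 lower in adult than at E18, with a median log2 fold change of 0.34. Of 16 such small-subunit members, 11 were higher and 1 lower (median 0.42). Of the 20 mitochondria-specific large-subunit members, 12 were higher and 0 lower (0.25). Of the 10 mitochondria-specific small-subunit members, 7 were higher and 1 lower (0.62). With library size alone the counts turned, to 3 higher and 20 lower, 1 and 10, 1 and 14, and 1 and 5 in the order given, and the medians were -0.50, -0.43, -0.60 and -0.23; they lay 0.45, 0.52, 0.36 and 0.73 above the median of all genes. Over all genes tested, 39.5% were higher and 43.8% lower on the TMM scale, and 22.1 and 64.9% with library size alone. Differences between the groups were not tested.

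Members of known role gave the following values. The protein of Mrps12 lies at the decoding centre, and its levels were 24.8 and 26.2 at E18 and 51.6 and 39.5 in adult (0.84 ± 0.16, adjusted p = 0.000973, edgeR; -0.02 with library size alone). Mrps7, in the head of the small subunit, went from 40.8 and 48.3 to 79.7 and 74.3 (0.79 ± 0.10; -0.06 with library size alone). In the stalk of the large subunit, Mrpl12 went from 48.8 and 57.1 to 103 and 97.6 (0.93 ± 0.11, and 0.08 with library size alone), and Mrpl11, at the stalk base, from 9.45 and 11.5 to 13.4 and 11.9 (0.27 ± 0.12, adjusted p = 0.0597, edgeR; -0.58 with library size alone). The call of Mrpl11 was lost without E18 replicate 1 (0.13) and without adult replicate 1 (0.19).

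The 3 paralogues related to bacterial S18 differed in direction. In the groups above only Mrps18c was counted as the bacterial counterpart, and Mrps18a and Mrps18b, though related, as mitochondria-specific. Mrps18b, a small-subunit protein, rose from 13.0 and 12.7 to 27.6 and 25.7 (1.05 ± 0.14, adjusted p = 8.05e-05, edgeR). Mrps18a, which sits in the large subunit, went from 25.2 and 29.4 to 39.6 and 41.6 (0.57 ± 0.10). Mrps18c was called lower in adult, with samples that overlap and a call that rests on single libraries, as described. Mrps18b and Mrps18c had 16.7 and 12.8% of their 31-base words in pseudogenes. Mrps18b also shared 24.5% of its 100-base words with other transcripts, most with Gm16279, so the levels of both are uncertain. Against the family total Mrps18b gained 0.57 ± 0.14, Mrps18a was at 0.10 ± 0.10 and did not pass, and Mrps18c lost 0.91 ± 0.18, so the order of the 3 does not depend on the scaling between samples. With library size alone Mrps18a turned to -0.27 and Mrps18b stayed positive at 0.20 without passing.

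Mrps30 and Mrps22 did not pass from E18 to adult (0.15 ± 0.10 and 0.19 ± 0.10; -0.70 and -0.66 with library size alone). Mrps34 was higher, from 30.9 and 35.7 to 70.3 and 63.7 (1.01 ± 0.10), a value that could include reads of the overlapping Mapk8ip3. Mrpl44, a protein with an RNase III fold, went from 15.5 and 17.6 to 24.8 and 24.2 (0.56 ± 0.09; -0.28 with library size alone). Mrps36 keeps its ribosomal symbol but its product is now placed with the 2-oxoglutarate dehydrogenase complex, and it did not pass (-0.08 ± 0.29). Of the low members, Mrps33 (0.69 ± 0.26) and Mrpl42 (0.78 ± 0.25) were called higher on the TMM scale, and both turned negative with library size alone (-0.16 and -0.07). Mrps33 lost its call without E18 replicate 1 or adult replicate 1, and Mrpl42 without adult replicate 1.

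Most of the change fell between E18 and P14. Over that interval 55 members were higher, against 38.2% of all genes tested, and 4 lower, against 39.3%, with a median log2 fold change of 0.46 against -0.03 for all genes, whereas with library size alone 5 were higher, against 18.6% of all genes, and 51 lower, against 66.8%, with a median of -0.40. The members' median lay 0.49 above that of all genes on the TMM scale and 0.50 above it with library size alone. Mrpl14 rose most, from 62.2 and 80.8 to 191 and 197 (1.44 ± 0.13, adjusted p = 1.15e-05, edgeR), and Mrpl27 rose by 1.35 ± 0.13; both kept a positive value with library size alone (0.58 and 0.49).

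The 4 members lower at P14 than at E18 were Mrps36, Mrpl48, Mrps11 and Mrps25. Mrps36 went from 1.49 and 2.39 to 0.929 and 1.08 (-0.94 ± 0.29, adjusted p = 0.0164, edgeR), a call lost without E18 replicate 2 (-0.56). Mrpl48 went from 5.67 and 4.71 to 3.78 and 3.09 (-0.60 ± 0.16, adjusted p = 0.00779, edgeR). Without E18 replicate 2, 2 members were lower.

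Between P14 and P28 most members were not called, and both shares called lay below those of all genes. On the TMM scale 10 members (13.2%) were higher, against 25.2% of all genes tested, and 18 (23.7%) lower, against 28.6%. The other 48 were not called, and the medians were -0.03 for the members and -0.05 for all genes. With median-ratio scaling the split was 12 higher and 12 lower, and with library size alone 10 and 19. Mrpl30, a large-subunit protein kept from bacteria, rose most, from 2.38 and 2.18 to 3.87 and 4.19 (0.82 ± 0.16, adjusted p = 0.00333, edgeR). Mrps36 had the second largest increase in size (0.56 ± 0.30) and did not pass. Mrpl23 fell from 4.16 and 5.18 to 1.96 and 2.04 (-1.22 ± 0.26, adjusted p = 0.00453, edgeR), and Mrpl50, a mitochondria-specific protein of the large subunit, fell from 69.3 and 62.3 to 36.0 and 40.9 (-0.78 ± 0.13, adjusted p = 0.00121, edgeR). These counts rest on single libraries: without P14 replicate 1 they were 6 higher and 7 lower, without P14 replicate 2 1 and 10, without P28 replicate 1 5 and 7, and without P28 replicate 2 1 member was higher.

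Read over both intervals, 15 members rose from E18 to P14 and fell from P14 to P28, against 8.85% of all genes tested, with the P14 libraries common to both steps, although with library size alone 13 of the 15 had a negative first step and only Mrpl14 and Mrps6 a positive one (-0.63 to 0.58). They were Mrpl9, Mrpl14, Mrpl18, Mrpl23, Mrpl28, Mrpl50, Mrpl51, Mrpl52, Mrps6, Mrps9, Mrps15, Mrps16, Mrps17, Mrps23 and Mrps28. Mrps9, for instance, went from 18.2 and 21.6 through 28.7 and 27.9 to 18.2 and 19.2, and its E18 and P28 samples overlapped. Another 7 members rose at both steps, against 13.8% of all genes, of which 6 had a negative first step with library size alone and only Mrpl38 a positive one (-0.58 to 0.18). These were Mrpl24, Mrpl38, Mrpl39, Mrps5, Mrps12, Mrps24 and Mrps27. A further 33 rose at the first step only, 28 of them with a negative value there with library size alone, and only Mrps25 was lower at both. Mrpl30, Mrpl40 and Mrps10 passed as higher at the second step alone, and Mrpl3 and Mrpl19 as lower. The 12 members that passed at neither step were Mrpl20, Mrpl21, Mrpl22, Mrpl33, Mrpl41, Mrpl47, Mrpl49, Mrpl54, Mrps14, Mrps18c, Mrps22 and Mrps26.

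Between P28 and adult, edgeR called 0 members higher, against 7.94% of all genes tested, and 0 lower, against 13.2%. At an unadjusted p below 0.05, 1 member passed, DESeq2 called 0, and with library size alone 1 was called higher. That member was Mrpl27, with 11.2 and 11.7 at P28 and 14.7 and 14.0 in adult (0.32 ± 0.13, adjusted p = 0.124, edgeR). Mrpl47 (0.31 ± 0.16), Mrpl23 (-0.25 ± 0.28) and Mrpl18 (-0.19 ± 0.10) had the next largest and the lowest values and did not pass. By the test of any difference among the 4 stages, 60 members passed, against 91% of all genes tested.

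The summed levels of the subunits moved side by side. The 49 large-subunit members summed to 1160 and 1339 (E18), 1868 and 1798 (P14), 1639 and 1760 (P28) and 1822 and 1693 (adult). The 26 small-subunit members summed to 480 and 550, 757 and 719, 680 and 736, and 759 and 703. Both sums were lowest at E18 on the TMM scale, and the family's reads per 1000000 were highest there. The ratio of large to small, which needs no scaling between samples, was 2.42 and 2.43 (E18), 2.47 and 2.50 (P14), 2.41 and 2.39 (P28) and 2.40 and 2.41 (adult). Only P14 lay above the range of the other stages.

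**Figure D4:**
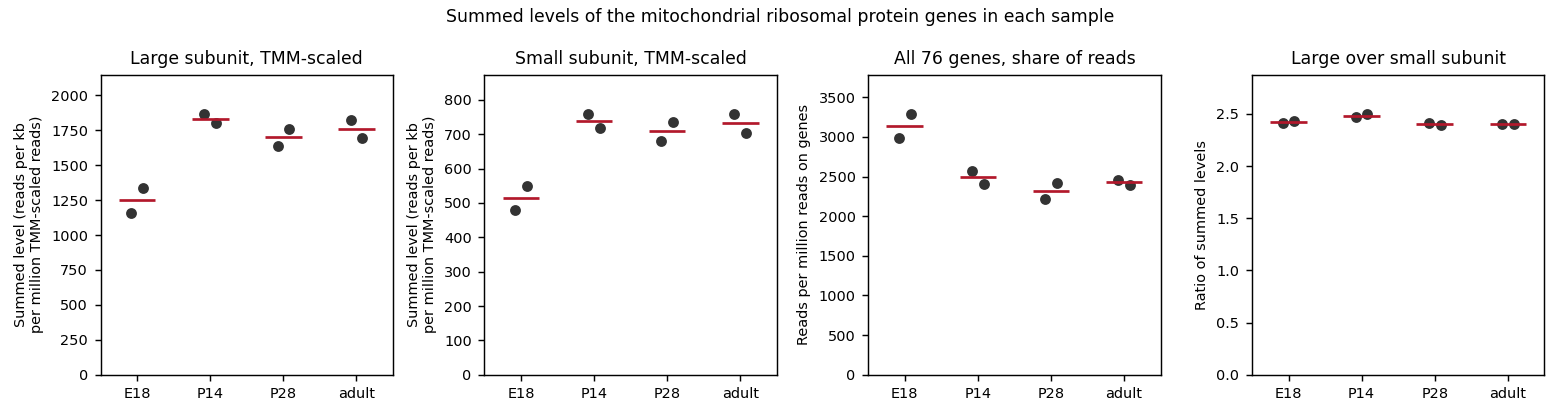
Summed level of the large-subunit members, summed level of the small-subunit members, reads of all 76 members per 1000000 reads on genes, and the ratio of large to small, by stage and on axes that start at 0. The left point of each stage is replicate 1, the right point replicate 2 and the red line their mean; the TMM-scaled sums are lowest at E18, the share of reads is highest there, and the ratio stays between 2.39 and 2.50.

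The genes for the proteins of the cytosolic ribosome moved the other way against the median gene. Of the 79, 72 were lower and 1 was higher in adult than at E18, against 43.8 and 39.5% of all genes tested. Their median log2 fold change was -1.47, and with library size alone 78 were lower, against 64.9% of all genes. Their summed level was 3993 and 4072 at E18 and 1926 and 1646 in adult. The summed level of the mitochondrial family was 0.411 and 0.465 times the cytosolic sum at E18, and 1.31 and 1.32 (P14), 1.44 and 1.38 (P28) and 1.34 and 1.46 times (adult) later, a ratio that needs no scaling between samples and whose E18 values lie below all the others. Many cytosolic ribosomal protein genes have processed copies, so their levels are uncertain. Rpl3 fell most (-2.70 ± 0.17) and Rpl35a was the gene that rose (2.29 ± 0.12).

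Other genes of mitochondrial translation were read from fixed lists. Of 7 ribosomal proteins with other symbols, 3 were higher and 1 lower in adult than at E18 (median 0.09). Ict1, a peptide-release protein built into the large subunit, rose from 28.8 and 33.8 to 58.1 and 52.0 on the TMM scale (0.82 ± 0.11; -0.03 with library size alone), and Gadd45gip1 fell from 69.2 and 92.8 to 40.7 and 43.5 (-0.94 ± 0.13). Of 23 genes for assembly of the particle and modification of its RNA, 15 were higher and 3 lower (median 0.63). Mterfd2, which brings the rRNA methyltransferase Nsun4 to the large subunit, had the highest value (1.65 ± 0.08), and Mrm1, a methyltransferase of the large rRNA, the lowest, from 12.4 and 15.6 to 1.89 and 1.86 (-2.90 ± 0.15).

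Of 15 translation factors and helpers, 12 were higher and 0 lower (median 0.83). The highest was Mtrf1, a release-factor family member (1.49 ± 0.15), and the lowest Guf1 (-0.07 ± 0.11), which did not pass. Of 17 mitochondrial aminoacyl-tRNA synthetases, 9 were higher and 2 lower (median 0.37), from Mars2 (-1.38 ± 0.17) to Nars2 (1.62 ± 0.09), the enzymes that charge the methionine and asparagine tRNAs. Of 8 genes for maintenance and transcription of mitochondrial DNA, 5 were higher and 0 lower (median 0.44), and Polg2, the accessory subunit of the DNA polymerase, was highest (1.53 ± 0.16). With library size alone the medians of these lists all turned negative, to -0.75, -0.22, -0.02, -0.48 and -0.41 in the order given, and the numbers higher and lower were 0 and 5, 6 and 13, 4 and 5, 3 and 10, and 1 and 5. They lay 0.20, 0.73, 0.93, 0.47 and 0.54 above the median of all genes, beside 0.45 for the members. Of all genes tested, 39.5% were higher and 43.8% lower on the TMM scale, and 22.1 and 64.9% with library size alone.

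**Figure D5:**
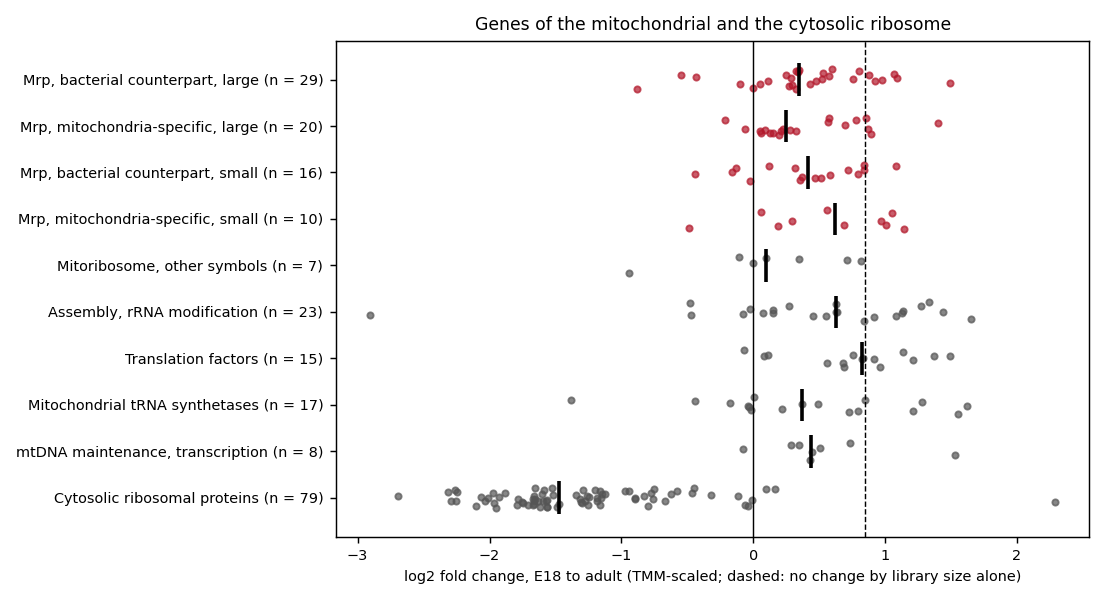
Log2 fold change from E18 to adult of each gene (edgeR, TMM scaling) in 4 groups of members, in red, and in the other lists, in grey, with list medians as black bars. The groups of members and the lists of mitochondrial translation have medians of 0.09 to 0.83 and the cytosolic ribosomal proteins -1.47; left of the dashed line, which marks no change by library size alone, lie all of the mitochondrial medians.

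Since the members' median change from E18 to adult lay above that of all genes, their promoters were searched for motifs. These were motifs of factors known to serve nuclear genes for mitochondria. The RefSeq table of promoters (GRCm38.p6, 250 bases before to 50 after the start) held 67 of the 76 members. CCGGAAGT, the core bound by ETS factors such as GABP, was found on either strand in 16.4% of the members' promoters, 6.76% of those of the genes tested and 4% of all promoters. GCATGCGC, the core bound by NRF1, was found in 11.9%, 4.67% and 2.81%. AAGATGGC, a core bound by YY1, was found in 17.9%, 3.87% and 2.88%. The TATA box (TATAAA) was in 5.97%, 8.61% and 14.2%, and CCAAT in 40.3%, 38.2% and 37.9%. Both strands were searched for each motif and matches of different motifs were counted separately, so that a stretch could count for more than 1. A match is a description of letters.

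The YY1 core stood mostly after the start. Its letters include ATG, those of a start codon, and whether the matches overlap the start of translation was not tested. Of the 12 matches of this core, 8 were on the gene's strand at 12 to 37 bases after the start. They are shown here, because they share the place as well as the letters, with the core in capitals and the surrounding bases in lower case.
Mrps18a, chr17:46111005-46111032, plus strand: ggtgcgttccAAGATGGCggccctcagg
Mrps27, chr13:99344790-99344817, plus strand: ggtgcgctccAAGATGGCggctcccatg
Mrpl49, chr19:6057722-6057749, minus strand: ttgaggcgccAAGATGGCagcagcggtg
Mrps7, chr11:115604148-115604175, plus strand: gacagcggccAAGATGGCtgcccccgcg
Mrpl35, chr6:71823744-71823771, minus strand: ggcaggctgcAAGATGGCggcttccatc
Mrpl37, chr4:107066823-107066850, minus strand: tgcacgggcaAAGATGGCggcgtccagg
Mrpl42, chr10:95501905-95501932, minus strand: agattgaagcAAGATGGCgagcgcgcgg
Mrps24, chr11:5707652-5707675, minus strand: gcgccggcccAAGATGGCgtggtc
Among these 8 genes the log2 fold change from E18 to adult ran from 0.00 for Mrpl35 to 1.09 for Mrps24, and the median of the 12 members with a match was 0.53 against 0.34 for those without.

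The ETS core was in the promoters of members at both ends of the order, and 4 are shown with the core in capitals, Mrpl27 and Mrps27 for their increase and Mrpl3 and Mrps18c for their decrease.
Mrpl27, chr11:94653726-94653753, plus strand: tccgcaagacCCGGAAGTagatctatcc
Mrps27, chr13:99344727-99344754, minus strand: cccgcctccgCCGGAAGTggtcctacca
Mrpl3, chr9:105053239-105053266, plus strand: gagaaacggaCCGGAAGTggcccggctg
Mrps18c, chr5:100798592-100798619, minus strand: gcttcccgggCCGGAAGTcacgtgaccc
The matches of Mrpl27 and Mrpl3 lie 55 and 19 bases before the start on the gene's strand, and those of Mrps27 and Mrps18c on the opposite strand. The median log2 fold change was 0.25 with the ETS core and 0.40 without it. For the NRF1 core it was 0.39 and 0.34, and Mrpl10, a member with a large increase, carries it 134 bases before its start.
Mrpl10, chr11:97041438-97041465, plus strand: ccagctccacGCATGCGCatagcggccc
Members with and without a motif overlapped over most of the range of fold changes, and the difference was not tested.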

How the data were processed

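Libraries of poly(A)-selected RNA from whole liver were compared, 2 per stage at 4 stages, with stage and replicate taken from the sample labels. The authors sequenced pairs of 100-base reads, mapped these to genome and transcriptome and deposited, for 22059 gene symbols, the raw read count and the RPKM (reads per kilobase and per 1000000 mapped reads). The submitters' processing notes name build mm9. The alignment followed a method that the study cites without naming the aligner, and the study tabulates uniquely mapped reads. Whether the counts hold only such reads and whether mates were counted separately are not given in the sources used here. RNA isolation was by Trizol according to the labels and by RNeasy according to the methods.

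Every RPKM equalled its count divided by 1 length per gene and 1 total per sample, and these lengths gave the levels. In edgeR (version 4.0.16), the 17081 genes that passed filterByExpr were scaled by TMM and fitted with glmQLFit, with 1 coefficient per stage over all 8 samples. Contrasts were tested with glmQLFTest, and p-values were adjusted by Benjamini-Hochberg over all of these genes, with calls at a false discovery rate below 0.1. The common biological coefficient of variation was 0.126. Standard errors were derived from the fold change and the F statistic. The fits were also run on simulated counts in which few genes changed against the rest. Changes as wide as those between these stages were not simulated, so those runs cannot decide between the scalings. The authors used DESeq with a 3-fold threshold, which is an alternative here. Other alternatives were library size alone, median-ratio scaling, other filters (no filter, or at least 10 counts in every sample), DESeq2 (version 1.42.0), limma (version 3.58.1) on log2(RPKM + 0.1), only the 2 stages compared, a false discovery rate of 0.05, the replicate number as a block, the median ratio over the family and each sample left out in turn. Library size alone taken against the median of all genes was added after the data were seen.

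The members and the lists were chosen with earlier results of these data known. Of the lists, Malsu1, Slirp and Tefm had no row under the symbols searched. Named members were the 6 highest and 6 lowest by log2 fold change from E18 to adult, the 2 highest and 2 lowest in each interval, the 3 highest and 3 lowest by mean level, any over 3-fold, and 12 fixed for their role. From each list the highest and lowest were named. Other members named were those of a count, chosen after their values were seen.

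Whether replicate numbers pair the samples was checked by the correlation of deviations from the stage means, which ran from -0.29 to 0.11 over all genes in the 6 pairs of stages, so the numbers were not taken as pairs. The duplicates differed by more than sampling noise (chi-square per degree of freedom of 4.02 to 7.17 over the members). Shared sequence was counted in GENCODE M21 transcripts and promoters were those of RefSeq on GRCm38.p6, a build other than that of the files, so no coordinates of the counted genes are given. For 63 of the 67 promoters the bases after the start were found in a transcript of the gene. R (version 4.3.3) and Python (version 3.11.15) were used.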

Additional observations from a re-analysis of the deposited data

How the results depend on the processing

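The alternatives followed the counts of members called, the family's medians and the named members in their comparisons, and not every member singly. Of 860 alternative values, 766 kept their direction and their side of the threshold or moved by less than the spread, and 24 turned in direction, none of them when a sample was left out. All of the 24 came from library size alone and from limma on log2(RPKM + 0.1), which scale by library size. From E18 to P14, library size alone gave 5 members higher and 51 lower (median -0.40) and limma 6 and 50 (-0.39). From E18 to adult they gave 6 higher and 50 lower (-0.50) and 5 and 51 (-0.52), and each called 1 member higher from P28 to adult. Over all 76 members, 64 had a positive log2 fold change from E18 to adult with TMM, and 15 with library size alone. Among the named members, the values that turned from E18 to adult were, with library size alone and limma in that order, -0.79 and -0.82 for Mrpl52, -0.16 and -0.16 for Mrps33, -0.0685 and -0.0808 for Mrpl42, -0.0164 and -0.0495 for Mrps12, -0.0575 and -0.0789 for Mrps7, -0.58 and -0.59 for Mrpl11, -0.27 and -0.29 for Mrps18a, -0.70 and -0.72 for Mrps30, -0.28 and -0.31 for Mrpl44, and -0.66 and -0.68 for Mrps22. Taken against the median of all genes, library size alone gave the members' median as 0.50, 0.01, 0.02 and 0.45 over the 3 intervals and from E18 to adult, against 0.49, 0.01, 0.02 and 0.45 with TMM.

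From P14 to P28, 5 members were higher with no filter on low counts and 5 at a false discovery rate of 0.05, and 11 were lower with DESeq2. With at least 10 counts in every sample, 9 were lower from E18 to adult. With only the 2 stages compared, 1 was higher from P28 to adult. A 3-fold threshold left 0 members in every comparison and 0 in the test among the 4 stages. The cause was not tested, except that the stricter thresholds call fewer genes by construction.

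With a sample left out, members higher and lower numbered 47 to 59 and 2 to 5 from E18 to P14, 1 to 12 and 7 to 22 from P14 to P28, 0 to 1 and 0 to 0 from P28 to adult, and 39 to 57 and 4 to 8 from E18 to adult, 50 to 67 differed among the stages, and 18 to 21 gained and 21 to 28 lost on the family total. The lone sample of a stage was then assumed to vary like the others. With the replicate number as a block, the samples sharing only a number, 55 members were higher and 4 lower from E18 to P14, 7 and 16 from P14 to P28, 0 and 0 from P28 to adult, and 49 and 5 from E18 to adult, each within 1.5 times the count without the block. With 2 samples a stage, small differences could be missed, and the members with fewest reads have the largest errors.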

Other observations

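Genes for 9 regulators of nuclear genes for mitochondria were read in the same samples. From E18 to adult 3 were higher and 4 lower, against 39.5 and 43.8% of all genes tested. Their median log2 fold change was -0.11, the same as that of all genes. Nrf1, whose product binds the GCATGCGC core, fell from 9.05 and 10.9 reads per kilobase and per 1000000 TMM-scaled reads at E18 to 2.82 and 2.94 at P14 and 2.19 and 2.82 in adult (-1.99 ± 0.15, adjusted p = 1.45e-06, edgeR). Esrra, a nuclear receptor active in mitochondrial gene programmes, rose from 6.73 and 6.97 at E18 to 19.9 and 20.2 at P14 and 28.7 and 22.1 in adult (1.89 ± 0.13). Chosen after their values were seen, Gabpb1, a subunit of GABP, fell (-1.34 ± 0.11), its DNA-binding partner Gabpa rose on the TMM scale (0.41 ± 0.09) and turned to -0.44 with library size alone, and Yy1 did not pass (-0.11 ± 0.10; -0.96 with library size alone). These are levels of messenger RNA in whole liver, where the E18 samples held 1.46 and 1.81% of reads in erythroid markers, and the part of that in these values was not tested.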
